A study of Homo sapiens with 12 samples.

Results

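The unfolded protein response and the integrated stress response were followed through 38 genes, taken by symbol from the 63241 genes of a deposited table of TPM, a transcript level scaled to the library total and corrected for transcript length. All 38 were found, and all 38 were among the 14718 genes that reached 1 TPM in 3 libraries or more and were tested. The cells were HEPM, a human line of embryonic palatal mesenchyme, the tissue that fills the palatal shelves, and poly(A) RNA was sequenced 6 h after they received a plasmid encoding MSX1, a homeodomain protein needed for palate and tooth formation. The plasmids carried MSX1 in which 1 arginine was replaced by serine (R157S), lysine (R157K) or phenylalanine (R157F), or unaltered MSX1 (labelled MSX1, here WT), with 3 libraries each. All 4 groups overexpress an MSX1 protein on top of the cells' own, and cells with no MSX1 plasmid were not analysed here, so each comparison sets a replaced residue against transfected wild-type MSX1 and not against untransfected cells. The study concerns MSX1 methylated by PRMT1, an arginine methyltransferase, according to its title, and the comparisons ask how transcripts differ once that arginine is replaced. The labels name no separate cultures, so the p-values below measure the spread between these libraries, which may be technical.

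The endoplasmic reticulum (ER) folds secreted and membrane proteins with a set of chaperones and disulfide-forming enzymes. When unfolded protein builds up there, the membrane sensors IRE1 (gene ERN1), ATF6 and PERK (gene EIF2AK3) raise transcription of chaperone and degradation genes through spliced XBP1 and cleaved ATF6, and PERK phosphorylates eIF2 alpha. Phosphorylated eIF2 alpha, which other kinases also produce in the integrated stress response, slows most translation but favours that of ATF4, which induces DDIT3 (CHOP), amino acid enzymes and feedback genes. Palatal mesenchyme secretes much collagen and other matrix, and its ER chaperones are abundant. Splicing of XBP1, cleavage of ATF6, phosphorylation and translation of ATF4 are steps that a total transcript level per gene does not record.

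The 38 genes together took 0.781 to 1.08% of all TPM in a library. TPM keep no read depth, so the depth behind each value is unknown and no counting interval is given. The labelled cell type was checked with marker genes: 11 of 13 mesenchyme and palate markers reached 1 TPM, with VIM at 6305 to 9074 TPM, while TBX22 and MEOX2 were listed at 0. Of 8 epithelial markers, KRT8, KRT14 and KRT18 reached 1 TPM, EPCAM and CDH1 stayed at or under 0.5 TPM and GRHL2 was listed at 0, and of 4 immune markers PTPRC stayed at or under 0.13 TPM while CD68 was at 232 to 660.4 TPM and CD74 at 9.25 to 28.0 TPM. The summed immune list was at 578 to 672 TPM with R157S, 277.5 to 371 TPM with R157K, 450.4 to 689 TPM with R157F and 242 to 500.2 TPM with WT. The summed level of the epithelial list was 22.2 to 25.8 TPM with R157S, 22.2 to 30.3 TPM with R157K, 24.97 to 25.4 TPM with R157F and 13.0 to 20.2 TPM with WT, and that of 4 endothelial markers 9.31 to 12.2 TPM with R157S, 4.1 to 4.97 TPM with R157K, 5.32 to 7.13 TPM with R157F and 11.8 to 11.96 TPM with WT, with CDH5 at or under 0.09 TPM. The part of these markers in the results was not tested. MSX1 transcript itself, from plasmid and genome together, was at 326 to 642 TPM with R157S, 333 to 604 TPM with R157K, 627 to 1007 TPM with R157F and 224 to 446 TPM with WT. All R157F libraries thus lay above all WT libraries, so that comparison differs in MSX1 transcript level as well as in the residue. The part of that level in the results was not tested. WT replicate 2 stood apart among the 38 genes: it was the highest WT library for 16 and the lowest for 19, and its median distance from the other WT libraries was 0.423 on the log2 scale, against 0.0638 to 0.238 for the other 11 libraries. Differences between groups in bulk RNA cannot tell fewer cells of a type from less RNA per cell.

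Changes below are differences of log2(TPM + 1), which understate the change of low genes. A gene is called where limma's linear model gave an adjusted p under 0.05, by the Benjamini-Hochberg method over all 14718 genes. Over all tested genes the median log2 change was -0.34 for R157K against WT, against -0.01 for R157S and -0.08 for R157F, and median-ratio scaling of the libraries made them 0.02 for R157S, 0.0025 for R157K and 0.0052 for R157F. For R157K a change is therefore also given relative to this median. The SD over a group's 3 libraries follows each ±, and gene positions are those of GENCODE 29 on GRCh38.

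Of the 38 genes, 34 differed among the 4 plasmids (limma F test), as did 70.8% of all tested genes. With R157S, 7 genes were called higher and 3 lower than with WT, where 7.6% of all tested genes were called higher and 12.8% lower. With R157K, 7 were called higher and 21 lower, where 17.3% of all tested genes were called higher and 46.2% lower. With R157F, 13 were called higher and 15 lower, where 24.4% of all tested genes were called higher and 33.8% lower. The members' shares for R157K and R157F were thus near those of all genes, and no difference between them was tested. The same shares of all genes stand beside the counts by role group below, where no difference was tested either. Median-ratio scaling gave 7 higher and 3 lower for R157S (9.99% and 9.92% of all tested genes), 16 higher and 15 lower for R157K (31.1% and 30.1%), 17 higher and 14 lower for R157F (29.6% and 28.5%), and 31 genes in the F test (62.7%). Counted by library, 10 genes lay wholly above WT and 9 wholly below with R157S (19.7% and 23.9% of all tested genes), 7 above and 21 below with R157K (15.9% and 47.6%), and 16 above and 17 below with R157F (28.6% and 37.7%). For the 38 genes the median log2 change against WT was 0.08 (R157S), -0.30 (R157K) and -0.04 (R157F). With both R157K and R157F, co-chaperones and ATF4 targets were called both higher and lower, as were all tested genes at the shares given above.

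**Figure D1:**
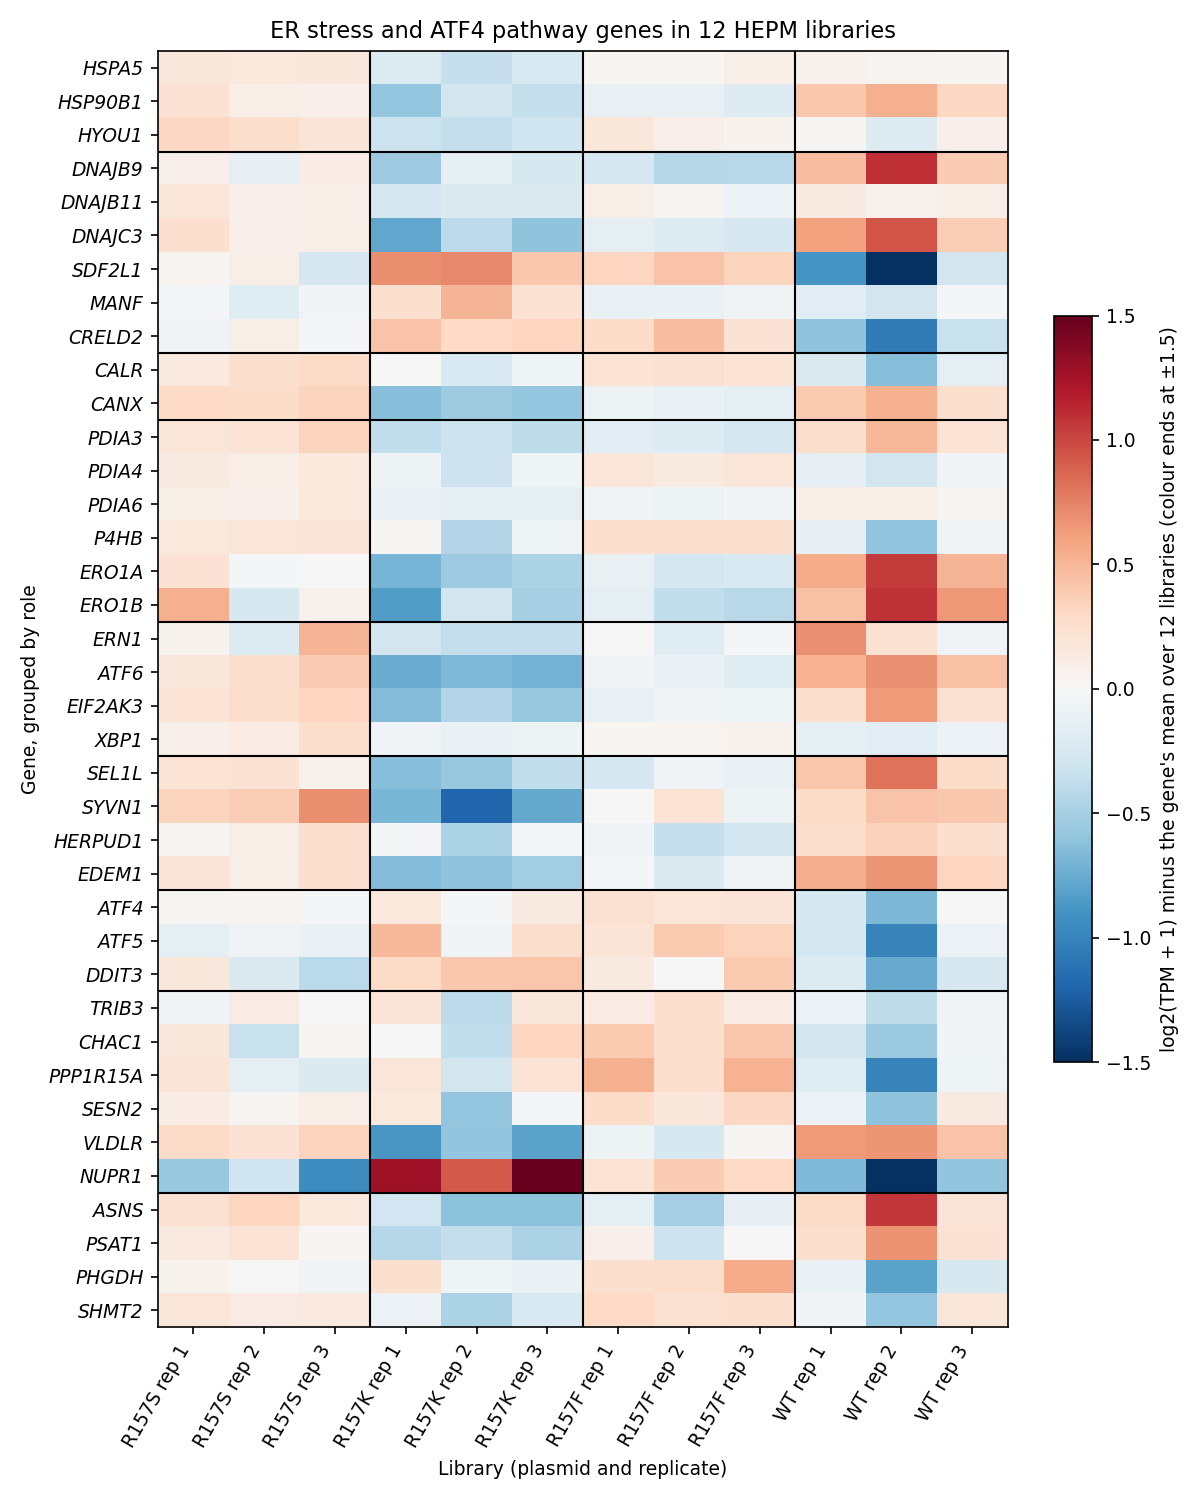
Each row is 1 of the 38 genes, grouped by role, and each column 1 library (R157S, R157K, R157F and WT, replicates 1 to 3). Colour is log2(TPM + 1) minus the gene's mean over the 12 libraries, with the colour scale ending at 1.5 either way; NUPR1 and SDF2L1 are highest with R157K, ATF6, SYVN1 and VLDLR are lowest with R157K, and WT replicate 2 has the strongest colours of the WT libraries.

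The 3 Hsp70 and Hsp90 chaperones of the ER were not called higher with R157K or R157F in the TPM. HSPA5 (BiP, ENSG00000044574, chromosome 9 from 125234853 to 125241330, minus strand), the ER Hsp70 that also holds the stress sensors inactive, is the usual index of the unfolded protein response. It stood at 697, 691 and 692 TPM with R157S, 537, 485 and 527 TPM with R157K, 632, 629 and 655 TPM with R157F, and 646, 634 and 629.5 TPM with WT. The R157S libraries were the highest of all 12 and the R157K libraries the lowest, and the R157F libraries overlapped those of WT. HSPA5 changed by 0.12 with R157S (SE 0.07, limma adjusted p = 0.201) and by 0.01 with R157F (adjusted p = 0.955), neither past the test. It fell by 0.30 with R157K (SE 0.07, adjusted p = 0.00243), but was 0.04 above the median of all genes, and under median-ratio scaling the change was 0.12 (adjusted p = 0.158).

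The stretch upstream of HSPA5 shows the DNA element through which this class of genes answers ER stress, and it is given for that reason. It is the RefSeq promoter sequence of GRCh38.p14 from the minus strand, 250 bases that end just before the transcription start, chr9:125241344-125241593, read 5′ to 3′ in the gene's direction. Capitals mark the ends of an ER stress response element (ERSE), CCAAT and CCACG with 9 bases of any kind between them, which is bound by NF-Y at its CCAAT end and by ATF6 or XBP1 at its CCACG end.
HSPA5: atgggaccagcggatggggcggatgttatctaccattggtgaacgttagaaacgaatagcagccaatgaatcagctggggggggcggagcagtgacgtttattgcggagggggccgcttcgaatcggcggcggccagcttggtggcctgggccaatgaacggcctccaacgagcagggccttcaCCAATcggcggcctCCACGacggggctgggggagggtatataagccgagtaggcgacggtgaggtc

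HSP90B1 (GRP94), the ER Hsp90 that folds integrins and secreted proteins, stood at 1329.6 ± 67.6 TPM with R157S, 921.7 ± 100 TPM with R157K, 1103.6 ± 38.8 TPM with R157F and 1623 ± 124 TPM with WT. It fell by 0.82 with R157K (SE 0.10, adjusted p = 1.42e-05), 0.48 below the median of all genes, and fell by 0.55 with R157F (SE 0.10, adjusted p = 0.000654). HYOU1 (GRP170), a large Hsp70 relative and nucleotide exchange factor for BiP, had 113, 109.8 and 104 TPM with R157S, 72.9, 70.8 and 74.1 TPM with R157K, 102, 96.2 and 94.3 TPM with R157F, and 92.5, 79.8 and 95.7 TPM with WT. The R157S libraries lay above every WT library and the R157K libraries below. HYOU1 rose by 0.29 with R157S (SE 0.09, adjusted p = 0.0414, and 0.0508 with the replicate number as a block) and fell by 0.29 with R157K (adjusted p = 0.0121), a direction that turned to 0.12 under median-ratio scaling (adjusted p = 0.233). The R157S call on HYOU1 was lost on leaving out any 1 library of R157S or WT other than WT replicate 3.

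Among co-chaperones and small folding proteins, 2 rose and 2 fell with R157S and with R157F, and 3 rose and 3 fell with R157K, of 6 in each case. CRELD2 (ENSG00000184164, chromosome 22 from 49918167 to 49927540, plus strand), a secreted ER stress protein with disulfide isomerase activity, rose with every variant. Its levels were 43.5, 48.2 and 44.2 TPM with R157S, 61.4, 55.8 and 56.7 TPM with R157K, 54.9, 62.6 and 52.8 TPM with R157F, and 29.4, 21.4 and 35.7 TPM with WT. All 9 variant libraries lay above all 3 WT libraries. CRELD2 changed by 0.66 with R157S (SE 0.15, adjusted p = 0.0206), 1.01 with R157K (adjusted p = 8.98e-05; 1.35 relative to all genes) and 0.98 with R157F (adjusted p = 0.000396). The R157S call was lost without R157S replicate 2 (adjusted p = 0.0849), R157S replicate 3 (0.0717) or WT replicate 1 (0.0503). CRELD2 overlaps ALG12 on the other strand, at up to 18.9 TPM.

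SDF2L1, a partner of the ER Hsp40 proteins that limits aggregation, had 22.0, 22.7 and 17.8 TPM with R157S, 35.4, 35.8 and 28.6 TPM with R157K, 27.0, 29.1 and 27.2 TPM with R157F, and 11.2, 6.33 and 17.5 TPM with WT. Again no variant library fell among the WT libraries, though the highest WT library came close to the lowest R157S library. SDF2L1 changed by 0.88 with R157S (SE 0.25, adjusted p = 0.034), 1.53 with R157K (adjusted p = 0.000178; 1.87 relative to all genes) and 1.28 with R157F (adjusted p = 0.00122). The R157S call was lost when any library of the 2 groups other than WT replicate 3 was left out, with adjusted p from 0.0658 to 0.111. With GC content and length trends removed, in a fit described below, SDF2L1 was called with R157K only (0.47, adjusted p = 0.0275). It was then at 0.42 with R157S and 0.35 with R157F (adjusted p = 0.121 and 0.107). With each gene's shortest transcript in that fit, R157K and R157F were called (0.77 and 0.48, adjusted p = 0.003 and 0.047). MANF, a secreted ER stress protein that protects cells, stood at 154, 187 and 153 TPM with R157K, against 116, 108 and 129 TPM with WT, and rose there by 0.48 (adjusted p = 0.0013; 0.82 relative to all genes). With R157S and R157F its 6 libraries ran from 116 to 129 TPM, within the range of WT, and it was not called (adjusted p = 0.606 and 0.571).

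Of the J-domain proteins, which deliver clients to BiP, DNAJB9 and DNAJC3 fell with every variant in the TPM. DNAJB9 (ERdj4), which also represses IRE1, stood at 24.2 ± 2.19 TPM with R157S, 19.1 ± 2.92 TPM with R157K, 18.2 ± 1.32 TPM with R157F and 38.6 ± 11.3 TPM with WT, where replicate 2 alone reached 51.6 TPM. It fell by 0.62 with R157S (adjusted p = 0.0336), by 0.95 with R157K (adjusted p = 0.000452) and by 1.01 with R157F (adjusted p = 0.000675). The R157S call was lost without WT replicate 2 (-0.40, adjusted p = 0.088), and likewise without WT replicate 1 or any R157S library, with adjusted p from 0.0533 to 0.116. DNAJB9 overlaps PNPLA8 and THAP5 on the other strand, at up to 70.5 and 43.1 TPM. DNAJC3 (P58IPK), a co-chaperone and inhibitor of PERK, did not overlap between variants and WT: its 9 variant libraries ran from 13.2 to 27.9 TPM and its WT libraries from 30.4 to 45.7 TPM. The changes were -0.50 with R157S (adjusted p = 0.035), -1.23 with R157K (adjusted p = 1.45e-05; -0.89 relative to all genes) and -0.83 with R157F (adjusted p = 0.000685). DNAJB11 (ERdj3), a secreted J-domain protein, was called with R157K (adjusted p = 0.00313), at 76.4 ± 0.928 TPM against 96.2 ± 2.62 TPM with WT, and that difference of -0.33 became 0.09 under median-ratio scaling (adjusted p = 0.371). It was not called with R157S or R157F (adjusted p = 0.873 and 0.391).

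The lectin chaperones, which hold sugar-tagged glycoproteins until folded, split. Calreticulin (CALR), the soluble member, stood at 2648, 2822 and 2919 TPM with R157S, 2379, 2044 and 2284 TPM with R157K, 2745, 2805 and 2754 TPM with R157F, and 2049, 1535 and 2159 TPM with WT. The R157S and R157F libraries lay above all WT libraries, and the R157K libraries overlapped them. CALR rose by 0.56 with R157S (SE 0.12, adjusted p = 0.0177) and by 0.55 with R157F (adjusted p = 0.0021), and changed by 0.24 with R157K (adjusted p = 0.0963), where it was called under median-ratio scaling (0.66, adjusted p = 0.000474). The R157S call was lost without R157S replicate 2 (adjusted p = 0.0775) or R157S replicate 3 (0.0709). Calnexin (CANX), the membrane-bound partner, stood at 537, 525 and 549 TPM with R157S, 279, 299.6 and 291 TPM with R157K, 413, 404 and 398 TPM with R157F, and 570.3, 632 and 513 TPM with WT. The R157K and R157F libraries lay below every WT library, the R157K libraries the furthest. CANX fell by 0.97 with R157K (adjusted p = 2.28e-06; -0.63 relative to all genes) and by 0.49 with R157F (adjusted p = 0.000661), and changed by -0.09 with R157S (adjusted p = 0.461).

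Of 6 disulfide-forming proteins, 2 rose and 1 fell with R157S, 0 rose and 4 fell with R157K, and 2 rose and 3 fell with R157F. ERO1A and ERO1B, the oxidases that recharge protein disulfide isomerase, had the largest changes. ERO1A stood at 104, 88.8 and 89.6 TPM with R157S, 55.1, 61.1 and 64.2 TPM with R157K, 83.3, 74.7 and 76.6 TPM with R157F, and 133, 186 and 128.5 TPM with WT. No variant library overlapped WT. ERO1A fell by 0.64 with R157S (SE 0.14, adjusted p = 0.0179), by 1.28 with R157K (adjusted p = 7.23e-06; -0.94 relative to all genes) and by 0.91 with R157F (adjusted p = 0.000351). The R157S call was lost without R157S replicate 2 (adjusted p = 0.0775) or R157S replicate 3 (0.0709). ERO1B was low throughout, at 1.38 to 5.13 TPM in variant libraries against 4.76 to 7.99 TPM with WT, and fell with R157K (-1.26, adjusted p = 0.000397) and R157F (-1.03, adjusted p = 0.00257), but was not called with R157S (-0.60, adjusted p = 0.0727).

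Among the isomerases, PDIA3 (ERp57), which works with the lectin chaperones, stood at 1165 ± 70.5 TPM with R157S, 768 ± 16.6 TPM with R157K, 853.9 ± 33 TPM with R157F and 1237 ± 139 TPM with WT. It fell by 0.68 with R157K (adjusted p = 3.54e-05; -0.34 relative to all genes) and by 0.53 with R157F (adjusted p = 0.00061). PDIA4 (ERp72) stood at 386, 377 and 390.2 TPM with R157S, 331, 282 and 336 TPM with R157K, 397, 386 and 398 TPM with R157F, and 323, 289 and 339.95 TPM with WT. The R157S and R157F libraries were all higher than WT and the R157K libraries overlapped WT. PDIA4 rose by 0.28 with R157S (adjusted p = 0.0471) and by 0.31 with R157F (adjusted p = 0.0104), and changed by -0.01 with R157K (adjusted p = 0.965). P4HB (PDI), also a subunit of collagen prolyl hydroxylase, stood at 1108 ± 13.4 TPM with R157S, 881.8 ± 143 TPM with R157K, 1162 ± 3.60 TPM with R157F and 833 ± 160 TPM with WT, and rose by 0.43 with R157S (adjusted p = 0.04996) and by 0.50 with R157F (adjusted p = 0.00991). With the trends removed P4HB was not called with R157F (0.03, adjusted p = 0.689), and with shortest transcripts it was called lower there (-0.28, adjusted p = 0.00928). The R157S calls on PDIA4 and P4HB were lost on leaving out any library of the 2 groups other than WT replicate 3. PDIA6, an isomerase that acts on BiP clients and sensors, ranged from 631 to 774 TPM over the 12 libraries and was lower by 0.21 with R157K (adjusted p = 0.0173), which became higher by 0.21 under median-ratio scaling (adjusted p = 0.0263).

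Transcripts of the sensors were lower with R157K. ATF6 (ENSG00000118217, chromosome 1 from 161766294 to 161964070, plus strand) stood at 58.6, 61.4 and 68.1 TPM with R157S, 30.5, 32.6 and 31.3 TPM with R157K, 50.4, 48.5 and 45.6 TPM with R157F, and 75.2, 83.9 and 70.97 TPM with WT. The 4 groups did not overlap, and their order was R157K, R157F, R157S and WT from low to high. ATF6 fell by 1.26 with R157K (SE 0.10, adjusted p = 1.22e-06; -0.92 relative to all genes) and by 0.66 with R157F (adjusted p = 0.000317), and changed by -0.29 with R157S (adjusted p = 0.0521; 0.0237 without WT replicate 3). EIF2AK3 (PERK) had 19.99 ± 0.875 TPM with R157S, 10.96 ± 0.895 TPM with R157K, 15.6 ± 0.326 TPM with R157F and 21.9 ± 3.84 TPM with WT. It fell by 0.92 with R157K (adjusted p = 3.36e-05; -0.59 relative to all genes) and by 0.45 with R157F (adjusted p = 0.00765), and changed by -0.11 with R157S (adjusted p = 0.501). ERN1 (IRE1) was low, between 1.55 and 4.24 TPM in all libraries. It fell by 0.61 with R157K (adjusted p = 0.025), a call lost without R157K replicate 2 (adjusted p = 0.0562), R157K replicate 3 (0.0598) or WT replicate 1 (0.121) and under median-ratio scaling (-0.33, adjusted p = 0.196), and it was not called with R157S or R157F (adjusted p = 0.579 and 0.17).

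XBP1, the factor that IRE1 activates by splicing, stood at 212, 219 and 241 TPM with R157S, 194, 188 and 191 TPM with R157K, 205, 206 and 208 TPM with R157F, and 182, 179 and 189 TPM with WT. The R157S and R157F libraries were all above WT, and the lowest R157K library was just under the highest WT library. XBP1 rose by 0.28 with R157S (SE 0.08, adjusted p = 0.0292), and changed by 0.05 with R157K (adjusted p = 0.547) and by 0.17 with R157F (adjusted p = 0.074). Under median-ratio scaling it was called with all 3, by 0.31, 0.47 and 0.28 with R157S, R157K and R157F. The R157S call was lost without R157S replicate 2 (adjusted p = 0.0935), R157S replicate 3 (0.106), WT replicate 1 (0.0676) or WT replicate 2 (0.0515).

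The 4 genes of ER-associated degradation, which sends misfolded ER proteins to the proteasome, were all called lower with R157K, 3 with R157F and 0 with R157S. Of all tested genes, 46.2% were called lower with R157K, 33.8% with R157F and 12.8% with R157S. With R157S, 2 of the 4, SEL1L and EDEM1, had a limma p under 0.05 before adjustment. SYVN1 (HRD1, ENSG00000162298, chromosome 11 from 65121780 to 65134533, minus strand), the ubiquitin ligase of the pathway, stood at 48.5, 49.6 and 63.0 TPM with R157S, 23.5, 16.2 and 22.0 TPM with R157K, 38.5, 44.2 and 36.4 TPM with R157F, and 46.7, 52.0 and 50.9 TPM with WT. The R157K libraries were far below all others. SYVN1 fell by 1.25 with R157K (SE 0.15, adjusted p = 1.42e-05; -0.91 relative to all genes). It overlaps FAU on the same strand, at up to 962 TPM, and MRPL49 on the other strand, at up to 83.5 TPM, and how reads shared with them were assigned is not given in the sources used here, so its level is uncertain. SEL1L, the adaptor of SYVN1, fell by 1.03 with R157K (adjusted p = 3.53e-05) and by 0.64 with R157F (adjusted p = 0.00201). EDEM1, a mannose-trimming factor that marks glycoproteins for disposal, stood at 26.3, 24.5 and 27.4 TPM with R157S, 14.2, 14.7 and 15.7 TPM with R157K, 22.6, 19.6 and 21.9 TPM with R157F, and 33.7, 36.7 and 28.8 TPM with WT. All variant libraries were below WT, those of R157K the furthest. EDEM1 fell by 1.10 with R157K (adjusted p = 5.23e-06; -0.76 relative to all genes) and by 0.60 with R157F (adjusted p = 0.00089). HERPUD1, a stress-induced scaffold of the same complex, ran from 53.5 to 89.4 TPM in variant libraries and from 88.5 to 95.3 TPM with WT. It fell by 0.51 with R157F (adjusted p = 0.00578) and was lower by 0.46 with R157K (adjusted p = 0.00813), where median-ratio scaling left -0.04 (adjusted p = 0.77). With GC content and length trends removed, SYVN1 and EDEM1 stayed called lower with R157K. SEL1L and HERPUD1 were then just above 0 with R157K and not called (0.03 and 0.08, adjusted p = 0.768 and 0.535).

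In the TPM, the transcription factors of the ATF4 branch were the only role group with every gene called higher with both R157K and R157F. These were 3 of 3 each, where 17.3% of all tested genes were called higher with R157K and 24.4% with R157F. With GC content and length trends removed, only DDIT3 of the 3 was called with R157F. With R157S 0 were called by limma, and 1 had a p under 0.05 before adjustment. ATF4 stood at 323.1, 322.7 and 310.3 TPM with R157S, 350.2, 309 and 345 TPM with R157K, 369, 357 and 359 TPM with R157F, and 266, 196 and 312 TPM with WT. The R157F libraries lay above WT, and the highest WT library lay within the range of R157S and of R157K. ATF4 rose by 0.40 with R157K (SE 0.13, adjusted p = 0.0208; 0.74 relative to all genes) and by 0.51 with R157F (adjusted p = 0.00662), and changed by 0.33 with R157S (adjusted p = 0.0905; 0.0113 without WT replicate 3). The R157K call was lost without R157K replicate 1 (adjusted p = 0.0645) or R157K replicate 3 (0.06). ATF5, another stress-translated factor, had 31.9 ± 1.06 TPM with R157S, 40.9 ± 7.73 TPM with R157K, 42.6 ± 3.06 TPM with R157F and 25.7 ± 8.12 TPM with WT, and rose by 0.68 with R157K (adjusted p = 0.0105) and by 0.75 with R157F (adjusted p = 0.00734). ATF5 overlaps NUP62 and IL4I1 on the other strand, at up to 81.8 and 25.6 TPM.

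DDIT3 (CHOP, ENSG00000175197, chromosome 12 from 57516588 to 57521737, minus strand), which drives the pro-apoptotic arm, stood at 40.3, 30.7 and 26.8 TPM with R157S, 43.9, 47.6 and 48.2 TPM with R157K, 39.4, 35.8 and 47.2 TPM with R157F, and 31.3, 20.7 and 30.2 TPM with WT. The R157K and R157F libraries lay above all WT libraries, while R157S overlapped WT. DDIT3 rose by 0.77 with R157K (SE 0.18, adjusted p = 0.00216; 1.11 relative to all genes) and by 0.57 with R157F (adjusted p = 0.015), and changed by 0.25 with R157S (adjusted p = 0.305). The R157F call was lost without R157F replicate 3 (adjusted p = 0.0663) or WT replicate 2 (0.0582). DDIT3 overlaps MARS on the opposite strand, at up to 363 TPM; the library kit keeps strand, but the strand setting of the quantification is not given in the sources used here.

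**Figure D2:**
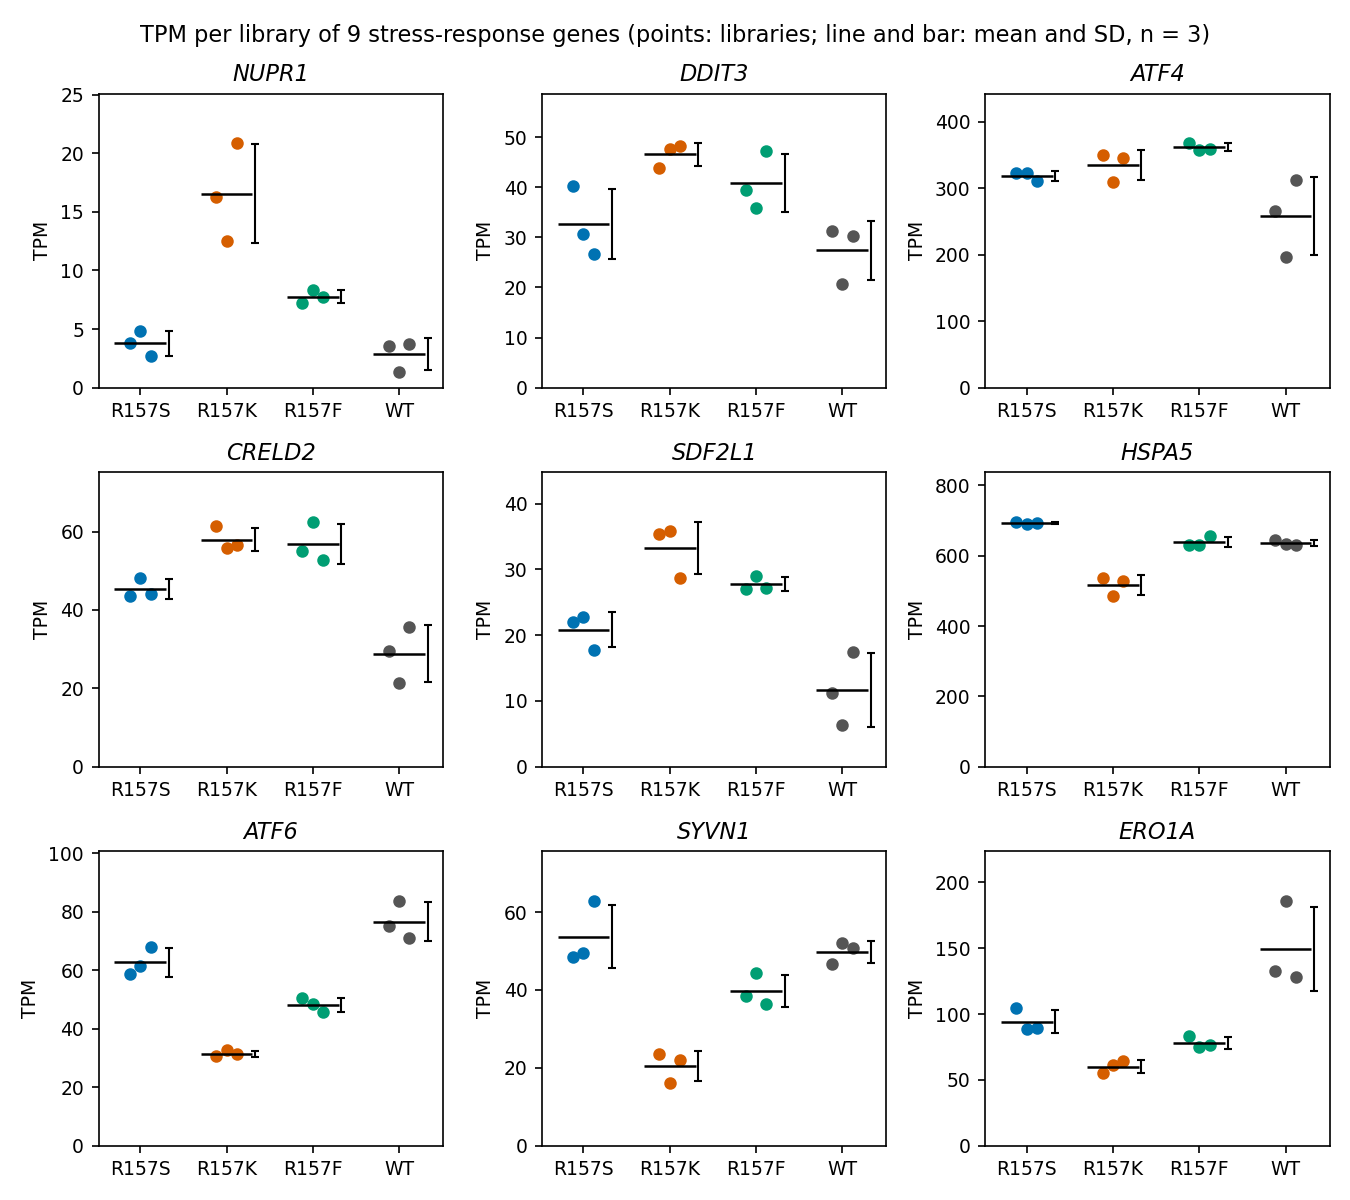
TPM of 9 of the 38 genes in each library (points), with the group mean (line) and SD (bar, n = 3) for R157S, R157K, R157F and WT; every vertical axis starts at 0. NUPR1 is at 12.6 to 20.9 TPM with R157K and at 1.31 to 8.31 TPM in all other libraries, whereas ATF6 and SYVN1 are lowest with R157K.

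Downstream, NUPR1 (ENSG00000176046, chromosome 16 from 28532708 to 28539174, minus strand), a small chromatin protein induced by ATF4 and CHOP under stress, had the largest change of the 38 genes in R157K. It stood at 3.81, 4.82 and 2.71 TPM with R157S, 16.2, 12.6 and 20.9 TPM with R157K, 7.24, 8.31 and 7.77 TPM with R157F, and 3.52, 1.31 and 3.76 TPM with WT. The R157K libraries did not overlap the R157F libraries, nor did either overlap WT, while R157S did. NUPR1 rose by 2.23 with R157K (SE 0.27, adjusted p = 1.79e-05; 2.57 relative to all genes) and by 1.25 with R157F (adjusted p = 0.00212), and changed by 0.35 with R157S (adjusted p = 0.331).

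The other targets of ATF4 and CHOP did not follow NUPR1 as a group: of 6 feedback and stress targets including it, 0 were called with R157S by limma (1 at p under 0.05 before adjustment), 1 rose and 1 fell with R157K, and 3 rose and 1 fell with R157F. PPP1R15A (GADD34), which dephosphorylates eIF2 alpha, had 164, 130.3 and 123 TPM with R157S, 163, 119 and 166 TPM with R157K, 208, 171 and 206 TPM with R157F, and 126, 71.3 and 137 TPM with WT. The R157F libraries were all above WT, and the R157S and R157K libraries overlapped it. PPP1R15A rose by 0.85 with R157F (adjusted p = 0.00603), and its 0.46 with R157K was not called (adjusted p = 0.0884), but was with the replicate number as a block (0.0256) and, at 0.87, under median-ratio scaling (0.00343). With GC content and length trends removed, a fit described further on, it was not called with R157K (0.20, adjusted p = 0.285) or R157F (0.35, adjusted p = 0.0842). CHAC1, which degrades glutathione, ranged from 5.59 to 11.9 TPM in all libraries and rose by 0.65 with R157F (adjusted p = 0.0124), and under median-ratio scaling also by 0.65 with R157K (adjusted p = 0.00762). TRIB3, a pseudokinase that restrains ATF4 and AKT, ranged from 7.18 to 11.9 TPM and was not called against WT in the TPM, with adjusted p from 0.0911 to 0.394. Its direction depended on the processing: median-ratio scaling called it higher with R157K (0.54, adjusted p = 0.0063) and R157F (0.43, adjusted p = 0.0231), and trend removal called it lower with R157F (-0.27, adjusted p = 0.0444). That last call was lost without WT replicate 2 (-0.21, adjusted p = 0.141). SESN2, which signals amino acid shortage to mTORC1, ranged from 8.41 to 16.7 TPM and was not called in the TPM either, with adjusted p of 0.32 with R157S, 0.898 with R157K and 0.0774 with R157F; the replicate block gave 0.0346 and median-ratio scaling 0.0281 for R157F. VLDLR, a lipoprotein receptor that ATF4 induces, went the other way: it had 8.63, 8.16 and 8.99 TPM with R157S, 3.30, 4.26 and 3.53 TPM with R157K, 6.5, 5.66 and 6.99 TPM with R157F, and 11.3, 11.5 and 9.61 TPM with WT. No variant library overlapped WT. VLDLR fell by 1.33 with R157K (adjusted p = 3.9e-06; -0.99 relative to all genes) and by 0.68 with R157F (adjusted p = 0.00102), and changed by -0.30 with R157S (adjusted p = 0.104).

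The amino acid enzymes that ATF4 induces were also mixed, with 0 of 4 called with R157S by limma (1 at p under 0.05 before adjustment), 2 lower with R157K, and with R157F 2 higher and 2 lower. ASNS, asparagine synthetase and a standard ATF4 target, had 17.7, 19.0 and 16.9 TPM with R157S, 12.1, 9.47 and 9.46 TPM with R157K, 13.6, 10.4 and 13.6 TPM with R157F, and 18.6, 32.4 and 17.2 TPM with WT. The R157K and R157F libraries lay below all WT libraries. ASNS fell by 1.02 with R157K (adjusted p = 0.000814; -0.68 relative to all genes) and by 0.77 with R157F (adjusted p = 0.00699). PSAT1, an enzyme of serine synthesis, fell by 0.80 with R157K (adjusted p = 0.000354) and by 0.45 with R157F (adjusted p = 0.0168), where the R157F call was lost without R157F replicate 2 (0.0809), without WT replicate 2 (0.0604) and under median-ratio scaling (0.0582). PHGDH, which opens that route, ran from 38.2 to 60.5 TPM in variant libraries and from 23.0 to 38.2 TPM with WT, and rose by 0.73 with R157F (adjusted p = 0.00305); its 0.41 with R157K had an adjusted p of 0.0506, and 0.0409 with the replicate block, and median-ratio scaling gave 0.82 (adjusted p = 0.00128). SHMT2, the mitochondrial serine hydroxymethyltransferase, had 127 ± 3.28 TPM with R157F against 98.3 ± 25.3 TPM with WT and rose there by 0.40 (adjusted p = 0.0472). In the TPM, PHGDH was thus called higher and PSAT1 lower with R157F, but with the trends removed neither was (PHGDH 0.27, adjusted p = 0.117, and PSAT1 0.07, adjusted p = 0.639), nor was SHMT2 (0.13, adjusted p = 0.326).

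The direction of a gene's change followed the GC content of its transcript, among the 38 genes as among all genes. Across the 38 genes the rank correlation of change with GC content was 0.84 for R157S, 0.771 for R157K and 0.858 for R157F, and across 14220 genes with an annotated transcript it was 0.765, 0.719 and 0.807; these describe genes that share the same libraries, and genes are not replicates. With transcript length the rank correlation was -0.589, -0.708 and -0.607 for the 38 genes, and weaker across the 14220 genes, at -0.201, -0.415 and -0.255. All 12 genes under 45% GC were called lower with R157K and all 12 with R157F, where 80.0 and 72.6% of all genes of such GC content were. Of 13 genes at 55% GC or more, 4 were higher and 2 lower with R157K, and 9 were higher and 0 lower with R157F, where 42.7 and 64.9% of all genes of such GC content were called higher. The 12 low-GC genes include ATF6, SEL1L, CANX, HSP90B1, PDIA3, ERO1A, DNAJB9, DNAJC3, VLDLR and PSAT1, and the high-GC genes include SDF2L1, CRELD2, P4HB, ATF4, ATF5, CHAC1, PPP1R15A, PHGDH and SYVN1.

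**Figure D3:**
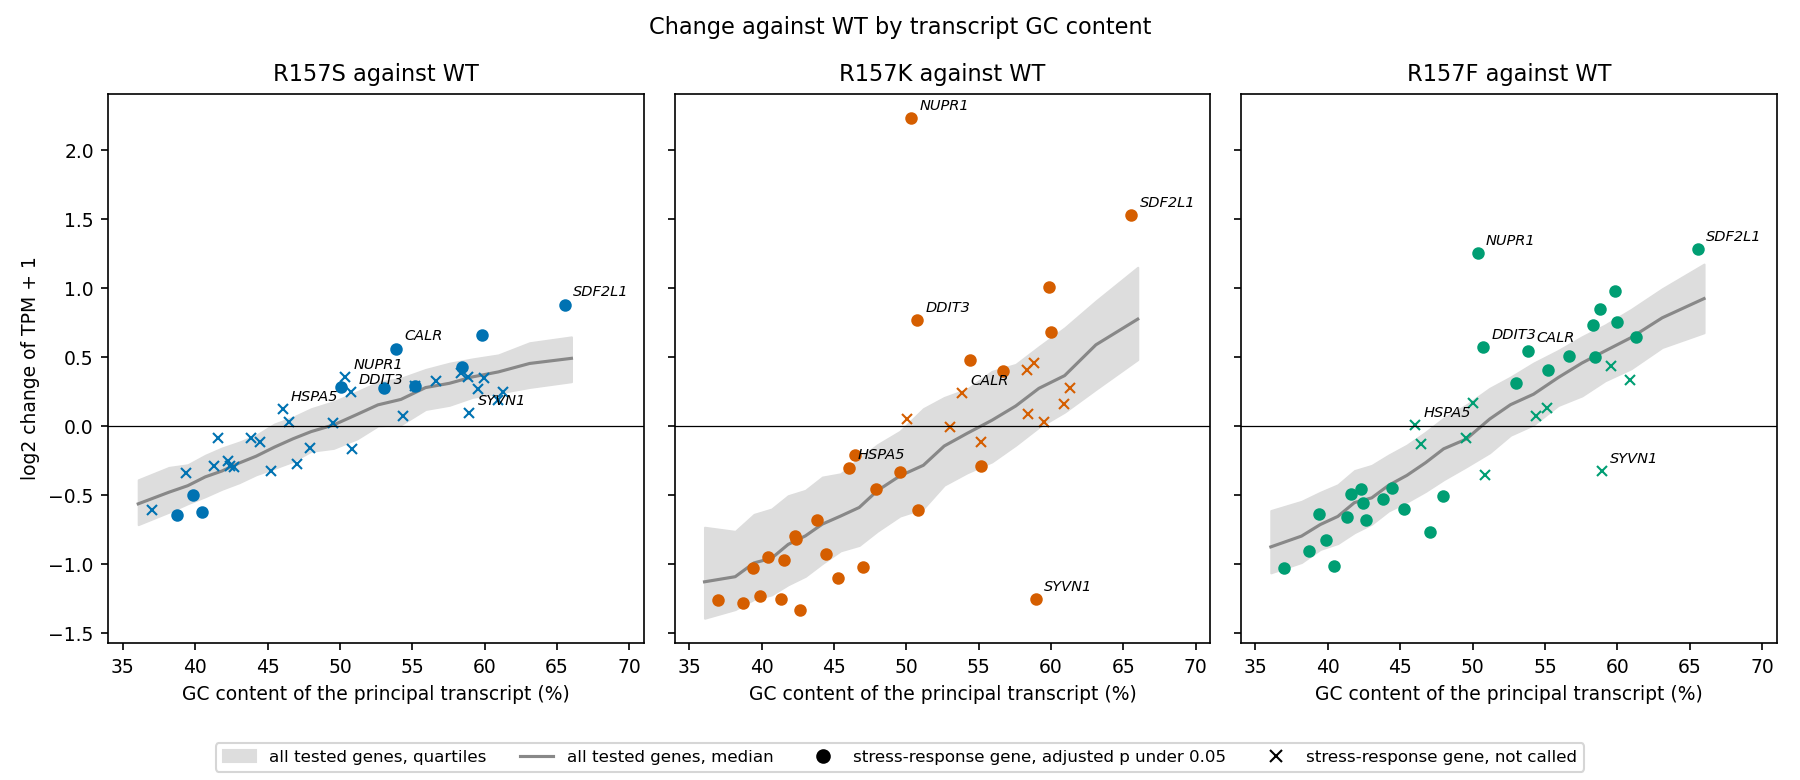
Log2 change of TPM + 1 against WT (vertical) by GC content of the principal transcript in percent (horizontal), for R157S, R157K and R157F. The grey line and band are the median and quartiles of all tested genes, filled points are stress-response genes with a limma adjusted p under 0.05 and crosses the others; most lie in or near the band, with NUPR1 and DDIT3 above it and SYVN1 below it with R157K.

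A second fit therefore took out of each library its trend on transcript GC content and length, estimated over all 14220 genes. The calls on the 38 genes then numbered 5 higher and 0 lower with R157S (3.27 and 2.7% of all genes), 10 higher and 7 lower for R157K (19.9 and 22.6%), and 8 higher and 5 lower for R157F (14 and 14.6%), and 19 genes differed among the 4 plasmids (41.7%). HSPA5 was then higher with all 3 variants, by 0.26 with R157S (adjusted p = 0.0264), 0.41 with R157K (adjusted p = 0.000197) and 0.35 with R157F (adjusted p = 0.00166), so for R157K its direction was the opposite of that in the TPM. CRELD2 kept its rise with each variant, at 0.29, 0.40 and 0.36 (adjusted p = 0.0392, 0.000969 and 0.00373 with R157S, R157K and R157F). CALR was higher by 0.37 with R157S (adjusted p = 0.00997) and by 0.32 with R157F (adjusted p = 0.00425), and XBP1 by 0.23, 0.21 and 0.19 with the 3 variants (adjusted p = 0.0274, 0.00725 and 0.0205). CANX, not called with R157S in the TPM, was higher there by 0.24 (adjusted p = 0.0199), and PDIA6 was higher by 0.31 with R157K and by 0.15 with R157F (adjusted p = 0.000419 and 0.0354). With each gene's shortest transcript as the source of GC content and length, XBP1 was not called, at 0.10, 0.02 and -0.06 with R157S, R157K and R157F (adjusted p = 0.417, 0.882 and 0.588), and CANX with R157S was not either (0.08, adjusted p = 0.357). Without WT replicate 2 this fit lost the R157S calls on HSPA5 (adjusted p = 0.0538) and CRELD2 (0.0962) and the R157F call on PDIA6 (0.0682).

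With the trends removed, NUPR1 rose by 2.70 with R157K (adjusted p = 8.35e-06) and by 1.31 with R157F (adjusted p = 0.00271), and DDIT3 by 0.64 and 0.50 (adjusted p = 0.00796 and 0.0392). The size for NUPR1 depended on the transcript used. With shortest transcripts it rose by 1.65 with R157K and 0.67 with R157F (adjusted p = 3.08e-05 and 0.0191), less than in the TPM. ATF4 was higher by 0.18 with R157K (adjusted p = 0.0412), and its 0.12 with R157F was not called (adjusted p = 0.191). ATF5 was higher by 0.27 with R157K (adjusted p = 0.0449), and its 0.17 with R157F was not called (adjusted p = 0.213). With shortest transcripts ATF4 was called with R157K and R157F (0.57 and 0.43, adjusted p = 0.000575 and 0.00699). ATF5 was called with neither there (0.03 and 0.09, adjusted p = 0.811 and 0.535). Most falls shrank: ATF6 was lower by 0.27 with R157K (adjusted p = 0.0126), EDEM1 by 0.31 (adjusted p = 0.00547), VLDLR by 0.40 (adjusted p = 0.0115) and ERO1A by 0.21 (adjusted p = 0.0166), each well under its fall in the TPM. With shortest transcripts these falls were 0.24, 0.70, 0.59 and 1.11, all called, so how far they shrank depended on the transcript used. With principal transcripts MANF with R157K was not called (0.16, adjusted p = 0.196; 0.50 and called with shortest transcripts, adjusted p = 0.002), nor was DNAJB9 with R157K (-0.06, adjusted p = 0.654). For HSP90B1, EIF2AK3, PDIA3, SEL1L and ERO1B the falls with R157K and R157F were not called after that removal. Nor were those of CANX (-0.03, adjusted p = 0.672) and PSAT1 (-0.10, adjusted p = 0.437) with R157K. With R157F, ATF6 (-0.07, adjusted p = 0.544), VLDLR (-0.17, adjusted p = 0.259) and DNAJC3 (-0.15, adjusted p = 0.148) were not called. The same held there for ERO1A (-0.17, adjusted p = 0.0594), ASNS (-0.52, adjusted p = 0.0584) and CANX (0.11, adjusted p = 0.116). The fall of SYVN1 did not shrink: it was lower by 1.39 with R157K (adjusted p = 1.62e-05) and by 0.81 with R157F (adjusted p = 0.00183), though its TPM with R157F had not been called lower (-0.32, adjusted p = 0.074). Without WT replicate 2 this fit lost the R157F calls on DDIT3 (adjusted p = 0.147), EDEM1 (0.114), DNAJB9 (0.067), HERPUD1 (0.115) and TRIB3 (0.141). It also lost the R157K calls on ATF4 (0.116), ATF5 (0.151), SDF2L1 (0.106), DNAJC3 (0.106) and ASNS (0.129), and called SHMT2 lower with R157K (-0.23, adjusted p = 0.0197). With shortest transcripts, HSP90B1 and CANX were called lower with R157K (-0.24 and -0.25, adjusted p = 0.0113 and 0.00281). So were ERO1A and VLDLR with R157F (-0.90 and -0.32, adjusted p = 0.00113 and 0.0492). PDIA3 with R157K was called higher there (0.20, adjusted p = 0.0292), and the other falls listed here as not called stayed so.

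**Figure D4:**
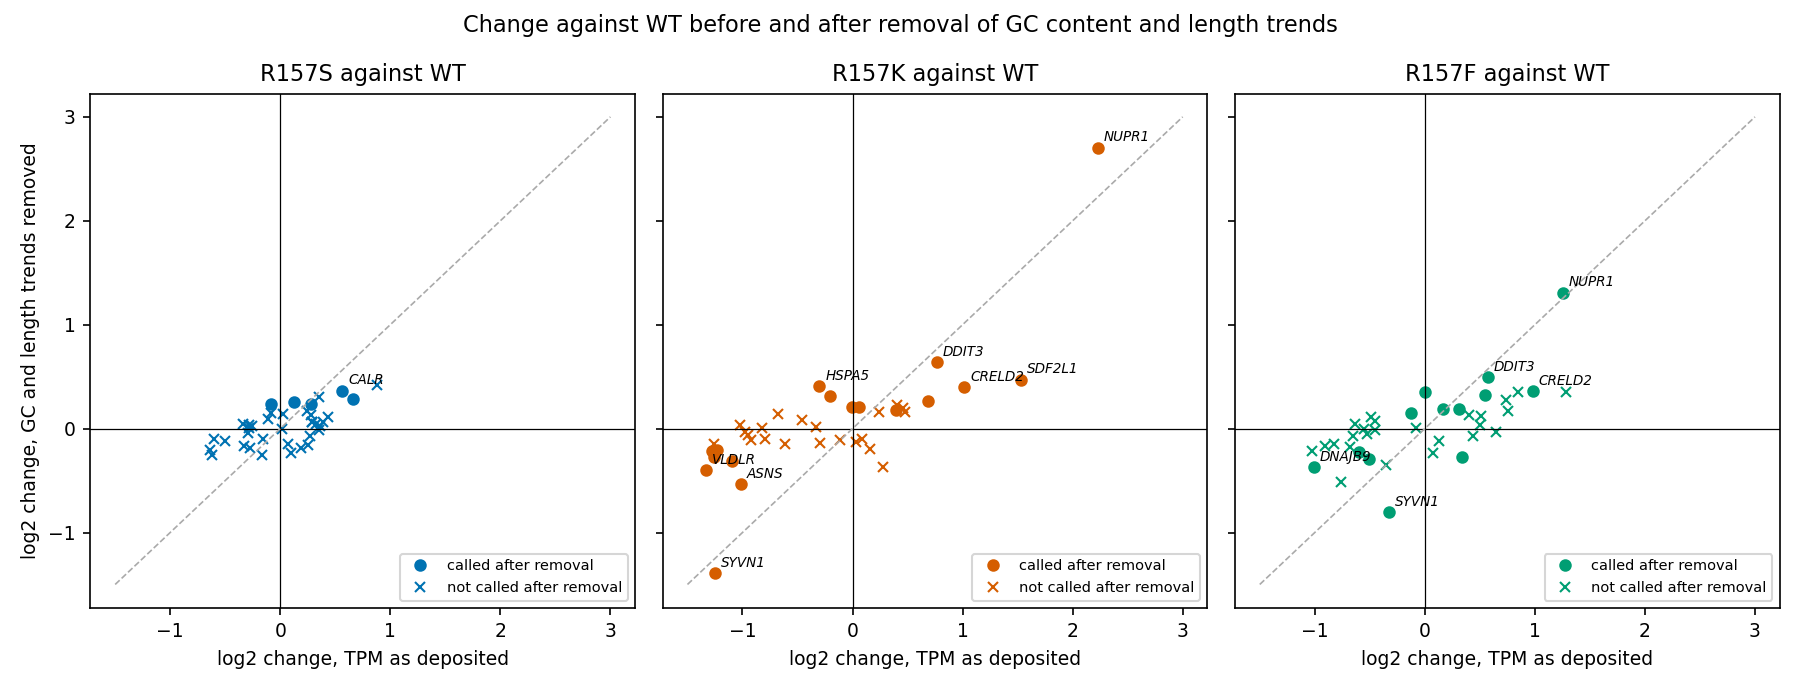
Log2 change against WT in the deposited TPM (horizontal) and after removal of GC content and length trends (vertical) for the 38 genes with R157S, R157K and R157F; filled points are called after the removal, crosses are not, and the dashed line marks equal values. NUPR1 and SYVN1 stay far from 0 with R157K, most others move towards 0, and HSPA5 with R157K passes from below 0 to above it.

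Over 17 settings per comparison (pseudocount, filters, scaling, trend removal, replicate block, fewer groups and each library left out), the calls that held in each were few. With R157K, CRELD2, DDIT3 and NUPR1 were higher and ERO1A, ATF6, SYVN1, EDEM1 and VLDLR lower in every setting. With R157F, CRELD2, CALR, PDIA4 and NUPR1 were higher in every setting, and no gene was lower in every one. With R157S no gene was called in every setting: its 10 calls became 5, 0 and 0 without R157S replicates 1, 2 and 3 (0.265 and 0.904% of all tested genes were called without replicate 2 and replicate 3), and 2, 3 and 17 without WT replicates 1, 2 and 3.

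Promoter sequence was then set beside these values. RefSeq promoters of GRCh38.p14, from 250 bases before to 50 after the start, were matched for 35 of the 38 genes; PDIA3, NUPR1 and SHMT2 were not matched. The ERSE, searched on both strands, was found in 8 of the 35, namely HSPA5, HSP90B1, CRELD2, CALR, CANX, PDIA6, ERO1B and XBP1, and in 0.0916% of all 27305 genes with a promoter. A related element, ERSE-II, is ATTGG and CCACG with 1 base of any kind between them; on either strand it was in HYOU1, SDF2L1 and HERPUD1 and in 0.0696% of all genes. The UPRE (TGACGTGG, both strands), an XBP1 site, was in HYOU1 alone, overlapping an ERSE-II there, and in 0.927% of all genes. The C/EBP-ATF composite element through which ATF4 acts (TTGCATCA, both strands) was in HERPUD1 and CHAC1 and in 1.08% of all genes. A gene without a match lacks only these letters in this window. The elements of CRELD2, CALR, CANX and XBP1, the other ERSE genes called higher with R157S after trend removal, are shown with 20 bases on either side, in the gene's direction and with the ends of the ERSE in capitals. CRELD2 and CALR carry it on the opposite strand. Their positions are chr22:49918534-49918592 (plus strand), chr19:12938364-12938422 (plus), chr5:179698758-179698816 (plus) and chr22:28800583-28800641 (minus).
CRELD2: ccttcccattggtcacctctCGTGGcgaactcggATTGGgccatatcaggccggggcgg
CALR: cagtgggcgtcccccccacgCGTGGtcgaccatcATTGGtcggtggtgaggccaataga
CANX: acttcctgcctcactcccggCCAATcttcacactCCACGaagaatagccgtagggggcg
XBP1: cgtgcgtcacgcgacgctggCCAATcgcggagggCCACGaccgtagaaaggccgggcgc

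For contrast, the match of CHAC1 to the C/EBP-ATF element is given in capitals at chr15:40953242-40953289 (plus strand). Whether ATF4 binds it in these cells was not tested. CHAC1 was called with R157F in the TPM but not after trend removal (-0.04, adjusted p = 0.887).
CHAC1: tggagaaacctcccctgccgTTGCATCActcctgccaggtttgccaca

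In the TPM, the 8 ERSE genes had 3 calls up and 0 down for R157S, 1 up and 5 down for R157K, and 2 up and 3 down for R157F. Of all tested genes, 7.6 and 12.8%, 17.3 and 46.2%, and 24.4 and 33.8% were called up and down there. With GC content and length trends removed, the counts were 5 and 0 for R157S, 4 and 0 for R157K, and 5 and 0 for R157F. Of all genes in that fit, 3.27% were called up and 2.7% down for R157S, 19.9 and 22.6% for R157K, and 14 and 14.6% for R157F. In that fit the 24 genes with neither ERSE nor ERSE-II had no call for R157S, 4 up and 7 down for R157K, and 2 up and 4 down for R157F. Their median log2 changes were -0.03, -0.11 and -0.05, while those of the ERSE genes were 0.24, 0.19 and 0.17. The 3 ERSE-II genes had no call for R157S, 1 up for R157K and 1 down for R157F in that fit. With each gene's shortest transcript in the trend fit, the ERSE genes had 3 up and 0 down for R157S, 4 up and 2 down for R157K, the genes down being HSP90B1 (-0.24) and CANX (-0.25), and 4 up and 0 down for R157F. The ERSE medians were then 0.12, 0.22 and 0.06, and those of the 24 other genes -0.04, -0.15 and -0.06. In the TPM the ERSE medians were 0.08, -0.25 and -0.06 and those of the 24 other genes 0.05, -0.47 and -0.20. Without WT replicate 2 the first trend fit lost the R157S calls on HSPA5 and CRELD2 and the R157F call on PDIA6. The split by ERSE was made after the values had been seen and was not tested.

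The variants were also set against each other. Between R157S and R157K, 21 of the 38 genes were higher and 4 lower with R157S, where 42.2% of all tested genes were called higher and 7.9% lower. The 5 with the lowest p were CANX (0.89, adjusted p = 1.39e-05), ATF6 (0.97, adjusted p = 1.69e-05), SYVN1 (1.35, adjusted p = 2.86e-05), VLDLR (1.04, adjusted p = 6.2e-05) and EDEM1 (0.77, adjusted p = 0.000156), all higher with R157S and all of the same sign after median-ratio scaling. The genes lower with R157S were NUPR1 (-1.88, adjusted p = 0.00016), MANF (-0.40, adjusted p = 0.00584), DDIT3 (-0.52, adjusted p = 0.0266) and SDF2L1 (-0.65, adjusted p = 0.0465, and 0.0632 with the replicate block). Median-ratio scaling, which moved the all-gene median from 0.33 to 0.01 in this comparison, left 6 higher and 7 lower (14.7 and 17.8% of all tested genes), and trend removal 6 and 5 (15.2 and 13.6%). CANX, ATF6, SYVN1 and VLDLR, higher, and MANF and NUPR1, lower with R157S, were called in all settings.

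Between R157K and R157F, 2 genes were higher and 13 lower with R157K, where 3.3% of all tested genes were called higher and 26.4% lower. The lower genes were led by SYVN1 (-0.93, adjusted p = 0.00133), ATF6 (-0.60, adjusted p = 0.00138), CANX (-0.48, adjusted p = 0.00224), VLDLR (-0.65, adjusted p = 0.00366) and HYOU1 (-0.42, adjusted p = 0.00533). MANF (0.41, adjusted p = 0.0121) and NUPR1 (0.98, adjusted p = 0.0186) were the higher ones. Without R157F replicate 1 the 15 calls became 9. After median-ratio scaling NUPR1 and MANF were called higher and SYVN1 lower (6.11 and 3.02% of all tested genes), after trend removal 3 genes were higher and 1 lower (5.94 and 5.83%), and SYVN1 and MANF were called in all settings.

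Between R157S and R157F, 3 genes were called, all higher with R157S, where 4.31% of all tested genes were called higher and 1.11% lower. These were PDIA3 (0.45, SE 0.09, adjusted p = 0.0234), CANX (0.41, SE 0.08, adjusted p = 0.0252) and ATF6 (0.37, SE 0.10, adjusted p = 0.0446, and 0.0643 with the replicate block). Leaving out R157S replicate 1 left 1 call, and leaving out any other library of the 2 groups left 0. Under median-ratio scaling 0 of the 38 were called by limma (1.1 and 1.12% of all tested genes higher and lower), with 13 at a p under 0.05 before adjustment. With the trends removed SYVN1 was higher (0.57, adjusted p = 0.0466) and NUPR1 lower (-1.01, adjusted p = 0.047), where 2.09 and 1.33% of all tested genes were. A fit of only these 6 libraries called 22 of the 38 and 31.4% of all tested genes.

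Other genes of the same pathways, in lists that hold none of the 38, were counted in the same fits. Beside their calls in the TPM stand the shares of all genes given above. These were 7.6% higher and 12.8% lower with R157S, 17.3 and 46.2% with R157K, and 24.4 and 33.8% with R157F. With the trends removed they were 19.9% higher and 22.6% lower with R157K, and 14 and 14.6% with R157F. Under median-ratio scaling they were 31.1 and 30.1% with R157K. No difference between a list and these shares was tested. Of 14 eIF2 kinase and eIF2 machinery genes, 0 rose and 3 fell with R157S, 0 rose and 10 fell with R157K, and 1 rose and 11 fell with R157F. With the trends removed R157K had 2 higher and 5 lower and R157F had 2 higher and 3 lower. EIF2AK2 (PKR), the double-stranded RNA sensor among the eIF2 kinases, stood at 146 ± 1.77 TPM with R157S, 60.4 ± 6.88 TPM with R157K, 94.4 ± 9.63 TPM with R157F and 228 ± 63.8 TPM with WT, and stayed lower by 0.78 with R157K after trend removal (adjusted p = 2.78e-05). IMPACT, an inhibitor of the kinase GCN2, had 26.5 ± 1.65 TPM with R157S, 11.1 ± 1.52 TPM with R157K, 17.6 ± 1.34 TPM with R157F and 31.1 ± 5.76 TPM with WT, and its change with trends removed was -0.33 with R157K (adjusted p = 0.0104) and 0.00 with R157F (adjusted p = 0.992).

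Of 25 further ATF4 targets tested, 1 rose and 2 fell with R157S, 5 rose and 10 fell with R157K, and 10 rose and 5 fell with R157F, and after median-ratio scaling R157K had 11 higher and 4 lower, and after trend removal 4 and 6. PYCR1, of proline synthesis, rose with each variant, to 72.3 ± 2.70 TPM with R157S, 81.7 ± 15.0 TPM with R157K and 92.7 ± 3.85 TPM with R157F, against 33.8 ± 6.99 TPM with WT. Its log2 change was 1.09, 1.25 and 1.45 (adjusted p = 0.00522, 1.38e-05 and 9.57e-05), and 0.69, 0.68 and 0.76 with the trends removed (adjusted p = 0.00716, 0.000583 and 0.00099). MTHFD2, a mitochondrial folate enzyme, fell with each variant, by 0.44, 1.32 and 0.86 with R157S, R157K and R157F (adjusted p = 0.0412, 5.9e-06 and 0.000431). After trend removal MTHFD2 was not called with R157S (-0.11, adjusted p = 0.441) and was lower by 0.37 and 0.25 with R157K and R157F (adjusted p = 0.00375 and 0.0395). The aminoacyl-tRNA synthetases, many of them ATF4 targets, numbered 17, of which 1 rose and 5 fell with R157S, 1 rose and 12 fell with R157K, and 3 rose and 9 fell with R157F, with a median log2 change of -0.64 with R157K, where all genes had -0.34; with the trends removed 2 were higher and 6 lower with R157K. IARS1, for isoleucine, fell by 0.91 with R157K (adjusted p = 3.36e-06), but with the trends removed the change was -0.05 (adjusted p = 0.533).

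On the ER side, 28 translocation and folding genes included 5 that rose and 7 that fell with R157S, 8 and 16 with R157K, and 5 and 13 with R157F, and with the trends removed 9 and 10 with R157K and 6 and 4 with R157F. They held opposite extremes: SEC61B, a subunit of the protein-conducting channel, was at 152 ± 3.0 TPM with R157S, 334 ± 47.4 TPM with R157K, 195.5 ± 15.2 TPM with R157F and 144.5 ± 3.60 TPM with WT, and STT3A, a catalytic subunit of the glycosylating enzyme, was at 402 ± 22.4 TPM with R157S, 147 ± 6.09 TPM with R157K, 257.5 ± 32.3 TPM with R157F and 425 ± 55.9 TPM with WT. SEC61B rose by 1.19 and STT3A fell by 1.52 with R157K (adjusted p = 2.16e-06 and 1.09e-06), and both kept sign and call after trend removal, at 1.18 and -0.67 (adjusted p = 1.24e-06 and 0.000125). Of 16 further degradation genes tested, 2 rose and 2 fell with R157S, 2 rose and 9 fell with R157K, and 3 rose and 8 fell with R157F; with the trends removed R157K had 4 up and 3 down and R157F 3 up and 1 down. NPLOC4, a cofactor of the p97 segregase, fell by 1.52 with R157K and 0.95 with R157F, and changed by -1.46 and -1.29 with the trends removed. FAF2, a p97 adaptor on the ER membrane, fell by 0.91 with R157K, and changed by -0.19 with the trends removed. The site 1 and site 2 proteases that cleave ATF6 and the COPII coat that carries it to the Golgi made a list of 15, of which 3 rose and 1 fell with R157S, 3 rose and 11 fell with R157K, and 4 rose and 9 fell with R157F, and with the trends removed 1 and 8 with R157K and 3 and 2 with R157F. The coat gene SEC31A and the coat GTPase gene SAR1B changed by -0.84 and -1.54 with R157K (adjusted p = 3.62e-06 and 1.99e-06), and with the trends removed by -0.14 and -0.47 (adjusted p = 0.111 and 0.0079). Of 12 mitochondrial chaperones and proteases, 0 rose and 2 fell with R157S, 2 rose and 5 fell with R157K, and 5 rose and 5 fell with R157F, and with the trends removed R157K had 4 higher and 7 lower. HSPD1 (HSP60) fell by 0.52, 1.11 and 0.85 with R157S, R157K and R157F (adjusted p = 0.0175, 4.28e-06 and 0.000205), and changed by -0.31, -0.44 and -0.42 with the trends removed. HSPA9 (mortalin) fell by 1.00 with R157K and 0.57 with R157F, and changed by -0.27 with R157S (adjusted p = 0.0544). After trend removal HSPA9 was lower by 0.14 with R157K (adjusted p = 0.0399) and was not called with R157F (-0.07, adjusted p = 0.291).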

How the data were processed

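The authors deposited TPM for each gene in each library. The submitters' processing notes name RSEM; of its version, the aligner, the build and the annotation nothing is stated in the sources used here. Per the labels' protocols, libraries were made from poly(A) RNA with a stranded kit. TPM were analysed as log2(TPM + 1) for 14718 of 63241 genes (1 TPM or more in 3 or more libraries), by limma 3.58.1 in R 4.3.3 with an expression trend, 1 mean per plasmid, 8 residual degrees of freedom and Benjamini-Hochberg adjustment over all genes. GC content, length and positions came from principal transcripts of GENCODE 29, which may not be the authors' annotation; trends were natural splines with 4 degrees of freedom per library. NUPR1's principal transcript has 5491 bases there, and a fit with shortest transcripts was added.

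The 38 genes, their roles and the other lists were chosen with earlier results of these data known. Statistics are given for HSPA5, XBP1, the sensors, ATF4 and DDIT3, for up to 3 called genes of lowest p per role against WT, up to 5 between variants, and up to 2 per further list (1 that the rule names is not reported here); others named with values were chosen after their values were seen. The labels give the replicate number as a batch, and it was treated as pairing libraries of the 4 groups, which is an assumption. The correlation of deviations between libraries of the same number ran from -0.128 to 0.393, the highest between R157K and WT replicate 2. Between libraries of different number it ran from -0.354 to 0.316, so these values do not show a pairing. Alternatives were a pseudocount of 0.1, no filter or one at 5 TPM, median-ratio scaling, trend removal, a replicate block, only the compared groups, and each library left out. Code was tested on simulated data. Pairs of libraries with identical values numbered 0.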

Additional observations from a re-analysis of the deposited data

How the results depend on the processing

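A pseudocount of 0.1 or a filter at 5 TPM kept the count of called genes within 1.5 times in every comparison. For R157S against WT the 10 calls became 2 without a filter, 5 with GC content and length trends removed, 4 with the replicate block and trend removal, 0 with only the 2 groups in the fit, and 0 to 17 without 1 library. For R157K against WT the 28 calls became 17 with the trends removed, 13 with the replicate block as well and 13 with WT replicate 2 also left out. For R157F against WT the 28 calls became 13, 11 and 7 in those fits. For R157S against R157K the 25 became 13 under median-ratio scaling, and 11, 10 and 13. For R157S against R157F the 3 became 1 without a filter, 0 under median-ratio scaling, 0 with the block and trend removal, 22 in the 2-group fit, and 0 to 1 without 1 library. For R157K against R157F the 15 became 3 under median-ratio scaling, 4 with the trends removed, 4 with the block as well, and 9 to 13 without 1 library. The F test's 34 became 19, 16 and 18. With each gene's shortest transcript, the trend fit called 4 against WT for R157S, 18 for R157F, 14 for R157S against R157K and 7 for R157K against R157F. That fit and the one without WT replicate 2 were chosen after seeing the data, and the cause of these changes was not tested.

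The replicate block alone gave 9, 30 and 29 calls against WT with R157S, R157K and R157F. Besides those given above, it called P4HB (adjusted p = 0.0397) and SHMT2 (0.0302) between R157S and R157K and CHAC1 in the F test (0.0106), lost DNAJB11 (0.0519) and SEL1L (0.0511) between R157K and R157F, and changed no other call on the 38 genes.

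Some log2 changes turned sign. Under median-ratio scaling, HSPA5 and HYOU1 with R157K were at 0.12 and 0.12. With the trends removed, with and without the replicate block, R157K gave 0.41 for HSPA5, 0.0085 for HSP90B1, 0.14 for PDIA3 and 0.033 for SEL1L, and R157F gave 0.11 for CANX, 0.043 for SEL1L and 0.071 for PSAT1. Leaving out WT replicate 2 as well, R157K gave 0.36 for HSPA5, 0.16 for PDIA3 and 0.058 for SEL1L, and R157F gave 0.059 for EIF2AK3, 0.083 for CANX, 0.068 for SEL1L and 0.14 for PSAT1. With shortest transcripts, R157K gave 0.48 for HSPA5, 0.078 for EIF2AK3 and 0.20 for PDIA3, and R157F gave 0.20 for EIF2AK3; DNAJB11 with R157K (0.33) and P4HB with R157F (-0.28) were called there against their direction in the TPM. For these the cause was not tested. Depth is unknown from TPM, so no limit from counting can be set on low genes such as ERN1, ERO1B and NUPR1.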
